A study of Mus musculus with 10 samples.

Results

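The genes described here are 8 genes of prostaglandin and thromboxane synthesis and signalling in mouse bone marrow-derived macrophages: the synthesis genes Ptgs1, Ptgs2, Ptges, Ptges2, Ptges3 and Tbxas1, and the prostaglandin E2 receptor genes Ptger2 and Ptger4. They were taken by symbol from a table of 57010 genes, and all 8 passed the filter on low values, an average of 10 or more normalized reads, as did 12455 genes in all. They were chosen by pathway with the measured rise of Ptgs2 after confinement already known. The levels before and after confinement are therefore given as a description, with folds and standard errors. Calls for confinement among these genes are counted beside the share of all tested genes, and are not evidence about the group.

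Macrophages were grown for 7 days with 20 ng/mL of the growth factor M-CSF from the marrow of either wild-type (WT) or WASp knockout (WKO) animals, WASp being the blood-cell activator of branched actin assembly encoded by Was. They were then left unconfined or held for 1 h at a height of 3 µm under a ceiling carried on silicone micropillars. There were 2 WT unconfined libraries (replicates 1 and 3), 3 WT confined (replicates 2, 3 and 6), 2 WKO unconfined (replicates 1 and 3) and 3 WKO confined (replicates 1, 2 and 5), and each messenger RNA library was prepared from 5 ng of RNA. The labels name no mice, strain, age or sex and do not say whether the libraries came from separate animals or cultures, so p-values measure the spread between these libraries, which may be in part technical.

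Arachidonic acid freed from membranes by phospholipases is turned into prostaglandin H2 by the cyclooxygenases COX-1 (Ptgs1), usually expressed at a steady level, and COX-2 (Ptgs2), an immediate early gene induced by inflammatory signals in macrophages. Terminal synthases turn prostaglandin H2 into prostaglandin E2 (Ptges, Ptges2, Ptges3) or thromboxane A2 (Tbxas1). Prostaglandin E2 acts back on macrophages mainly through the receptors EP2 (Ptger2) and EP4 (Ptger4), both of which couple to Gs and raise cyclic AMP.

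The cyclooxygenase pair and the receptor pair differ in the sequence in front of their genes, and their promoters are shown because the levels of both pairs were set side by side after confinement. The sequences are from RefSeq on build GRCm38.p6, 250 bases before and 30 after the annotated start, 5′ to 3′ on the strand of the gene. Ptgs2 is read on the plus strand of chr1:150099781-150100060, Ptgs1 on the plus strand of chr2:36230176-36230455, Ptger4 on the minus strand of chr15:5244158-5244437 and Ptger2 on the plus strand of chr14:44987861-44988140. Capitals mark matches to 7 short motifs searched on both strands.
Ptgs2: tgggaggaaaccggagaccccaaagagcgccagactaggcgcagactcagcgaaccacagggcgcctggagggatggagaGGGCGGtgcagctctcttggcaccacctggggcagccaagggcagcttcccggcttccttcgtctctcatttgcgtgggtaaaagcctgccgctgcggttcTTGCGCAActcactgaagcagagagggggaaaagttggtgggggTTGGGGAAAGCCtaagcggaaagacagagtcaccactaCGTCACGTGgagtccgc
Ptgs1: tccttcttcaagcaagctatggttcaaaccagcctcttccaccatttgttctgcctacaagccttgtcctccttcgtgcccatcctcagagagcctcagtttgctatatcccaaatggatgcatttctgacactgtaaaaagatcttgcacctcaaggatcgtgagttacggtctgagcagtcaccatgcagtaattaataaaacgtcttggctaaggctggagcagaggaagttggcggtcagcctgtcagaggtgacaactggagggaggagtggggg
Ptger4: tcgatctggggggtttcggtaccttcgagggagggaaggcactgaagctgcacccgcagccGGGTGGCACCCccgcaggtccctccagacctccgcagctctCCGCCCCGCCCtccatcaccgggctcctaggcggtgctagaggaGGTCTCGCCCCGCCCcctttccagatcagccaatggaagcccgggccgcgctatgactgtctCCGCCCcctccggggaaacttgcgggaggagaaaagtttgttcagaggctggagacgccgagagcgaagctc
Ptger2: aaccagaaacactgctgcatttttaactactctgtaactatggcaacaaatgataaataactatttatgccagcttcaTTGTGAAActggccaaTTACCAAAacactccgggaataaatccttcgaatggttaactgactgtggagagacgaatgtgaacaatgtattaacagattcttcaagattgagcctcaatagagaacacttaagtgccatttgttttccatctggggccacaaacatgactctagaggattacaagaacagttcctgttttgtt
The motifs were the cAMP response element core (TGACG, in 19.9% of 32851 mouse promoter windows of 280 bases), the E-box (CACGTG, 6.79%), a loose NF-kB motif (GGGNNNNNCC, 48.9%), a loose C/EBP motif (TTNNGNAA, 39.3%), AP-1 (TGANTCA, 7.46%), the GC box (GGGCGG, 34.7%) and the TATA box (TATAAA or TATATA, 16.5%).

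In the Ptgs2 window 5 of the 7 kinds of motif were matched. A GC box began at position -170 from the start and C/EBP matches at -69 and -25. The second C/EBP match overlapped an NF-kB match at -23, and a cAMP response element core at 14 overlapped an E-box at 17. The Ptgs1 window held none of the 7. The Ptger4 window held 4 GC boxes and 3 NF-kB matches, which overlap in part, and had a GC content of 66.8%. The Ptger2 window held 2 C/EBP matches and had a GC content of 37.9%. The windows of the other genes, not shown, held such motifs too. Ptges3 matched the cAMP response element core, NF-kB and the GC box, and Ptges matched NF-kB, C/EBP and the GC box. Ptges2 matched C/EBP and the E-box, and Tbxas1 matched AP-1 and the TATA box. The share of all mouse windows that match 5 kinds was not counted. These matches describe letters and show no binding.

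Reads were counted per gene without a stated use of strand, and 4 of the 8 genes share exon bases with another gene in GENCODE M21 (GRCm38). Ptger4 (chr15:5206661-5244187, minus strand) shares 16.5% of its exon bases with the opposite-strand genes Ttc33 and Gm15937, and the split between them is not given. The normalized read count of Ttc33 stayed between 303.6 and 448.5 in all libraries, and that of Gm15937 was at most 2.96. The shares were 7.51% for Ptger2 (chr14:44988195-45003820), 3.81% for Ptgs1 (chr2:36230426-36252272) and 1.58% for Tbxas1 (chr6:38875404-39084585). Ptgs2 (chr1:150100031-150108227) shares none, nor do Ptges, Ptges2 and Ptges3. A pseudogene, Ptges3-ps, matches 24.0% of the longest Ptges3 transcript, so that some Ptges3 reads are uncertain. Gm15937 matches 26.9% of the longest Ptger4 transcript, so that some Ptger4 reads are uncertain too.

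Libraries held between 13295701 and 19329908 reads, so that 3 reads, taken as the detection floor, equal a normalized read count of 2.35 to 3.59; this limit covers counting error only. Was itself averaged 1474 ± 234 (SD, n = 2) normalized reads in unconfined WT cells and 148 ± 8.82 (SD, n = 2) in their WKO counterparts. In confined cells it averaged 1612 ± 40.1 (SD, n = 3) with WASp and 107 ± 15.5 (SD, n = 3) without, so the genotype labels matched the counts. All 9 macrophage markers had reads in every library, with a summed level of 181190 to 318789. Markers of other cells were present too. The 12 neutrophil and progenitor markers summed to 7018 to 10949 in WT unconfined, 25159 to 30347 in WKO unconfined, 2588 to 8005 in WT confined and 7047 to 28311 in WKO confined libraries. The 11 stromal markers summed to 846 to 1644, 2027 to 2322, 176 to 665 and 697 to 8365 in the same order, and 10 of the 11 were highest in WKO confined replicate 5. Of the 8 megakaryocyte and platelet markers Gp1bb was at 0 throughout, and the list summed to 260 to 461, 492 to 726, 133 to 160 and 232 to 449. In bulk RNA of this kind, fewer cells of a type and less RNA per cell cannot be told apart.

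Ptgs2 was low but detected in unconfined cells, at 13 to 39 reads per library, and was among the most raised genes after 1 h of confinement. Its normalized read count was 17.1 and 37.4 in WT unconfined and 12.8 and 28.9 in WKO unconfined libraries. It was 515.3, 635.8 and 441.8 in WT confined replicates 2, 3 and 6. It was 1213, 510 and 2617 in WKO confined replicates 1, 2 and 5. All 6 confined libraries lay above all 4 unconfined ones, and the 2 genotypes overlapped in each condition, with WKO confined replicate 2 within the WT confined range. The ratio of group means was 19.5 in WT and 69.3 in WKO cells. On the log2(normalized read count + 1) scale, which understates changes of low genes, the difference was 4.32 (SE 0.564) in WT and 5.85 (SE 0.564) in WKO cells. That placed Ptgs2 at rank 12 of 12455 genes by size of rise in WT and at rank 4 in WKO cells. The antisense transcript Ptgs2os, which starts near the promoter of Ptgs2, had 0 normalized reads in every library but 1, WKO confined replicate 5, where it stood at 4.79 (4 reads).

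Ptgs1, which encodes the steadily expressed enzyme, did not follow Ptgs2. It stood at 328.7 and 285.0 in WT unconfined libraries, at 364.2, 342.5 and 114.1 in WT confined replicates 2, 3 and 6, at 531.8 and 401.6 in WKO unconfined libraries and at 368.0, 413.7 and 420.6 in WKO confined replicates 1, 2 and 5. Confined and unconfined libraries overlapped in each genotype, and the confinement difference was -0.33 (log2, SE 0.388) in WT and -0.21 (SE 0.388) in WKO cells. Without WT confined replicate 6, the lowest library, the WT difference was 0.21.

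**Figure D1:**
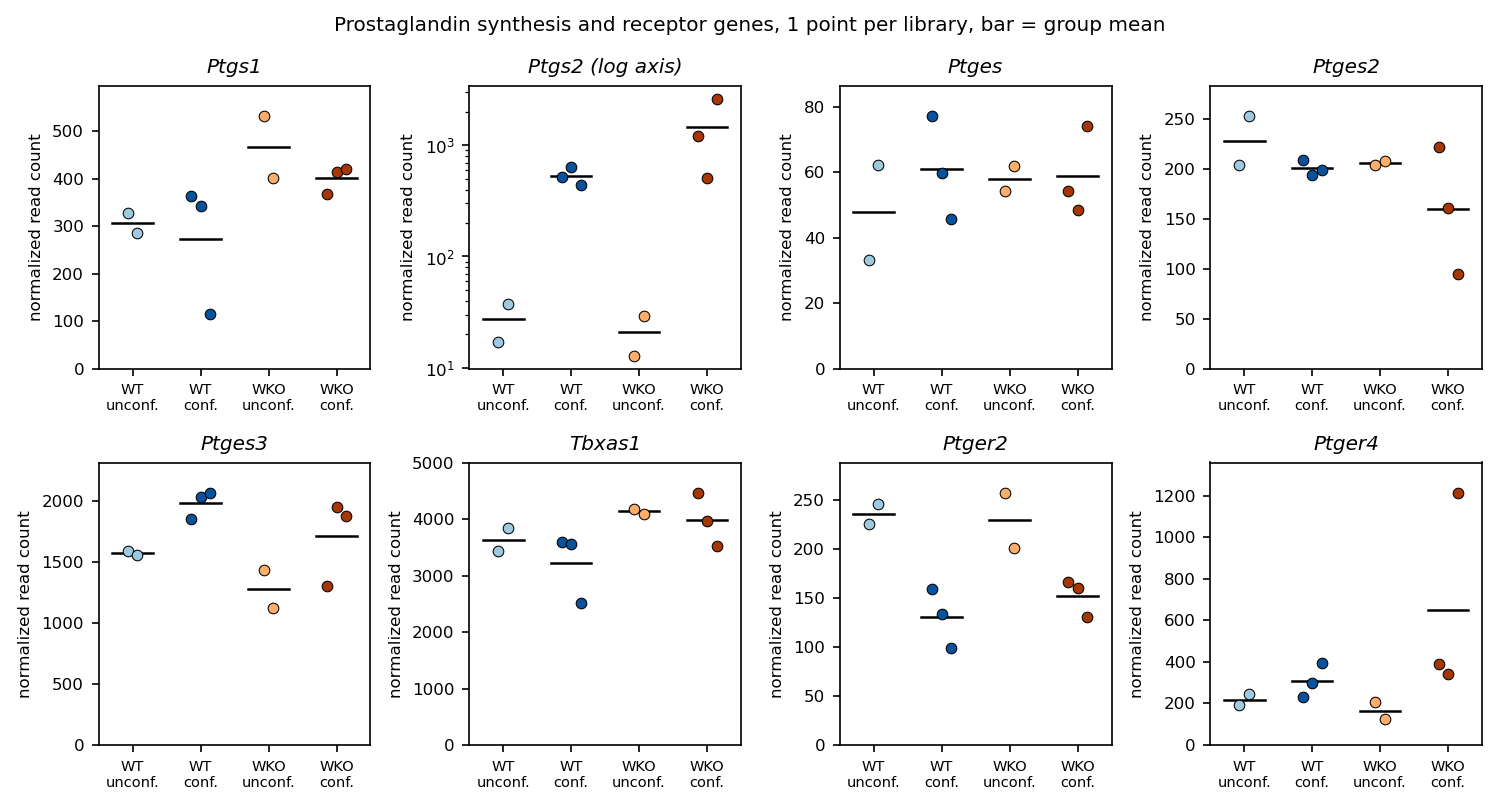
Normalized read count (y axis) of each of the 8 genes in the 4 groups (x axis), 1 point per library, with a bar at the group mean; the Ptgs2 axis is logarithmic and the others start at 0. Ptgs2 in the 6 confined libraries lies between 441.8 and 2617, above all unconfined libraries, and Ptger2 in confined libraries lies between 98.8 and 166.3, below all unconfined ones.

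The balance of the 2 cyclooxygenase transcripts differed accordingly. Levels per kilobase were divided by the merged exon bases of all annotated transcripts of a gene, which can exceed any 1 transcript. By this measure Ptgs2 made up 4.23% and 10.0% of the summed Ptgs1 and Ptgs2 level in WT unconfined libraries. It made up 2.00% and 5.75% in WKO unconfined libraries. In WT confined replicates 2, 3 and 6 the share was 54.5%, 61.2% and 76.7%, the highest coming from the library with the low Ptgs1 count. In WKO confined replicates 1, 2 and 5 it was 73.7%, 51.1% and 84.1%. Every confined library thus had a higher Ptgs2 than Ptgs1 level per kilobase of merged exon, and every unconfined library a lower one.

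Among the terminal synthases of prostaglandin E2, Ptges and Ptges2 overlapped between confined and unconfined libraries in both genotypes. Ptges encodes the microsomal enzyme that is usually induced together with COX-2. It was low, at 33.2 and 62.4 in WT unconfined, 77.1, 59.8 and 45.8 in WT confined, 54.3 and 61.9 in WKO unconfined and 54.1, 48.4 and 74.3 in WKO confined libraries. Its ranges overlapped between genotypes too, and the confinement difference was 0.38 (log2, SE 0.359) in WT and 0.00 (SE 0.359) in WKO cells. Ptges2, which encodes a second membrane-associated synthase, ran from 193.6 to 252.4 in the WT libraries and from 94.7 to 222.0 in the WKO libraries, the lowest value being that of WKO confined replicate 5.

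Ptges3 encodes p23, a cytosolic protein with synthase activity that is also a co-chaperone of Hsp90. Per kilobase of merged exon it had the highest level of the 8 genes in all 4 groups. This place depends on the lengths used, 2217 bases for Ptges3 and 9094 for Tbxas1. The normalized read count of Ptges3 was 1592 and 1558 in WT unconfined and 1858, 2032 and 2069 in WT confined libraries, which did not overlap. In WKO cells it was 1435 and 1122 unconfined and 1304, 1956 and 1879 confined, which did overlap. The confinement difference was 0.33 (log2, SE 0.171) in WT and 0.41 (SE 0.171) in WKO cells.

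Tbxas1, the thromboxane synthase gene, ranked after Ptges3 per kilobase of merged exon in all 4 groups, although its normalized read counts were higher. It ran from 2519 to 3843 in the 5 WT libraries and from 3532 to 4474 in the 5 WKO libraries, with the lowest count in WT confined replicate 6. Its confinement difference was -0.19 (log2, SE 0.159) in WT and -0.06 (SE 0.159) in WKO cells. The lowest Ptgs1 count came from the same library as the lowest Tbxas1 count.

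Of the receptor genes, Ptger2 was 225.1 and 245.7 in WT unconfined and 159.6, 133.7 and 98.8 in WT confined libraries, and 257.5 and 201.3 in WKO unconfined and 166.3, 160.0 and 130.6 in WKO confined libraries. All 6 confined libraries lay below all 4 unconfined ones. The ratio of means, confined over unconfined, was 0.555 in WT and 0.664 in WKO cells, and the log2 difference was -0.87 (SE 0.232) and -0.58 (SE 0.232).

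Ptger4 was 193.8 and 243.8 in WT unconfined and 233.5, 298.0 and 396.1 in WT confined libraries, which overlap. In WKO cells it was 205.2 and 125.9 unconfined and 392.3, 343.2 and 1215 confined, which do not. The ratio of means was 1.41 in WT and 3.93 in WKO cells, and the log2 difference was 0.47 (SE 0.450) and 1.76 (SE 0.450). WKO confined replicate 5 carried the highest counts of both Ptger4 and Ptgs2 and the highest stromal marker sum, 8365, and the part of those cells in the result was not tested. Without that library the WKO difference was 1.19 for Ptger4 and 5.27 for Ptgs2. The limma adjusted p of Ptger4 in WKO cells was 0.0852 with all libraries and 0.0456 without that library. Ptger4 passed in 6 of 21 alternatives.

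Per kilobase, Ptger4 made up 40.2% and 43.7% of the summed Ptger2 and Ptger4 level in WT unconfined libraries and 38.4% and 32.8% in WKO unconfined libraries. The share was 53.3%, 63.5% and 75.8% in WT confined replicates 2, 3 and 6, and 64.8%, 62.6% and 87.9% in WKO confined replicates 1, 2 and 5. By this measure Ptger2 was the larger part in each unconfined library and Ptger4 in each confined one. Which transcript was more abundant depends on the merged exon lengths and on reads from bases shared with Ttc33 and Gm15937, and was not settled. The Ptger4 share was higher in every confined than in every unconfined library.

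**Figure D2:**
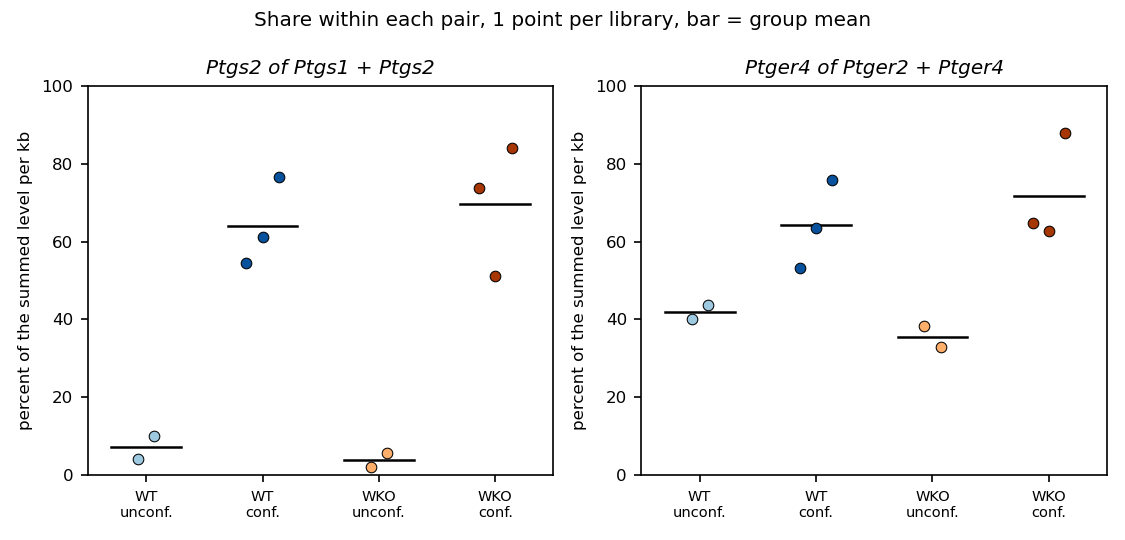
Share of Ptgs2 in the summed Ptgs1 and Ptgs2 level (left) and of Ptger4 in the summed Ptger2 and Ptger4 level (right), in percent of the level per kilobase of exon (y axis), in the 4 groups (x axis), 1 point per library with a bar at the group mean. Unconfined libraries reach at most 10.0% on the left and 43.7% on the right, while confined libraries start at 51.1% and 53.3%.

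The order of the 8 genes depends on the merged exon lengths used. By level per kilobase it was the same in both unconfined groups: Ptges3, Tbxas1, Ptgs1, Ptger2, Ptges2, Ptger4, Ptges and Ptgs2. Ptger2 and Ptges2 overlapped between libraries in both groups, whereas all other neighbours were separate. After confinement Ptgs2 moved from the last place to the third in both genotypes, at 116 ± 21.4 (SD, n = 3) normalized reads per kilobase in WT and 316 ± 234 (SD, n = 3) in WKO cells, and Ptger2 was placed after Ptger4 and Ptges2. In WT confined libraries Ptgs1 and Ptger4, Ptger4 and Ptges2, and Ptger2 and Ptges overlapped. In WKO confined libraries Tbxas1 and Ptgs2, Ptgs1 and Ptger4, and Ptges2 and Ptger2 overlapped.

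Spread between replicates was uneven among the 8 genes. The pooled standard deviation within groups was 0.83 (log2) for Ptgs2, 0.66 for Ptger4 and 0.56 for Ptgs1, against a median of 0.23 over all tested genes. It was 0.38 for Ptges, 0.37 for Ptges2, 0.25 for Ptger2, 0.22 for Ptges3 and 0.20 for Tbxas1.

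Read against all genes, 1 of the 8 genes, Ptgs2, passed an adjusted p of 0.05 in the limma fit for confinement in WT cells, where 1.16% of the 12455 genes passed, and 1 of 8, again Ptgs2, in WKO cells, where 1.72% passed. With the confinement effect averaged over the genotypes, a comparison added after the values had been seen, 2 of 8 passed, Ptgs2 higher and Ptger2 lower, against 6.21% of all genes. Ptgs2 and Ptger2 were also the 2 of 8 whose 6 confined and 4 unconfined libraries did not overlap, which was so for 7.39% of the tested genes. These contrasts were known when the genes were chosen, so the counts are not evidence about the group. The median log2 difference of the 8 genes was 0.08 in WT and -0.03 in WKO cells, beside -0.01 and -0.01 over all tested genes. The WT count fell to 0 without WT unconfined replicate 1, and the averaged count fell to 1, with Ptger2 lost, without any 1 of WT unconfined replicates 1 and 3, WKO unconfined replicate 1 and WT confined replicates 3 and 6. It rose to 4 without WKO confined replicate 1, and the WKO count rose to 2 or 3 without any 1 of the WKO confined libraries. Ptger4 was gained in each of these fits, and Ptges3 without WKO confined replicate 1.

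WKO and WT cells were then compared within each condition. In unconfined cells 0 of 8 passed in the limma fit, against 0.145% of all genes, and adjusted p-values ran from 0.672 to 0.978. In confined cells 0 of 8 passed, against 2.59% of all genes. The largest difference in confined cells was that of Ptgs2, 1.16 (log2, SE 0.504, limma adjusted p = 0.270), with a ratio of means of 2.72. This difference was 0.58 without WKO confined replicate 5, 1.76 without WKO confined replicate 2 and 0.16 with array weights. Ptger4 followed at 0.85 (SE 0.402, limma adjusted p = 0.312), or 0.28 without WKO confined replicate 5. At an unadjusted p under 0.05, 2 of the 8 genes were counted in confined cells, Ptgs2 and Tbxas1, and 0 in unconfined cells, beside 2087 and 1196 of the 12455 genes. The median of the 8 genes was -0.09 in unconfined and 0.28 in confined cells, beside 0.00 over all genes in both.

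**Figure D3:**
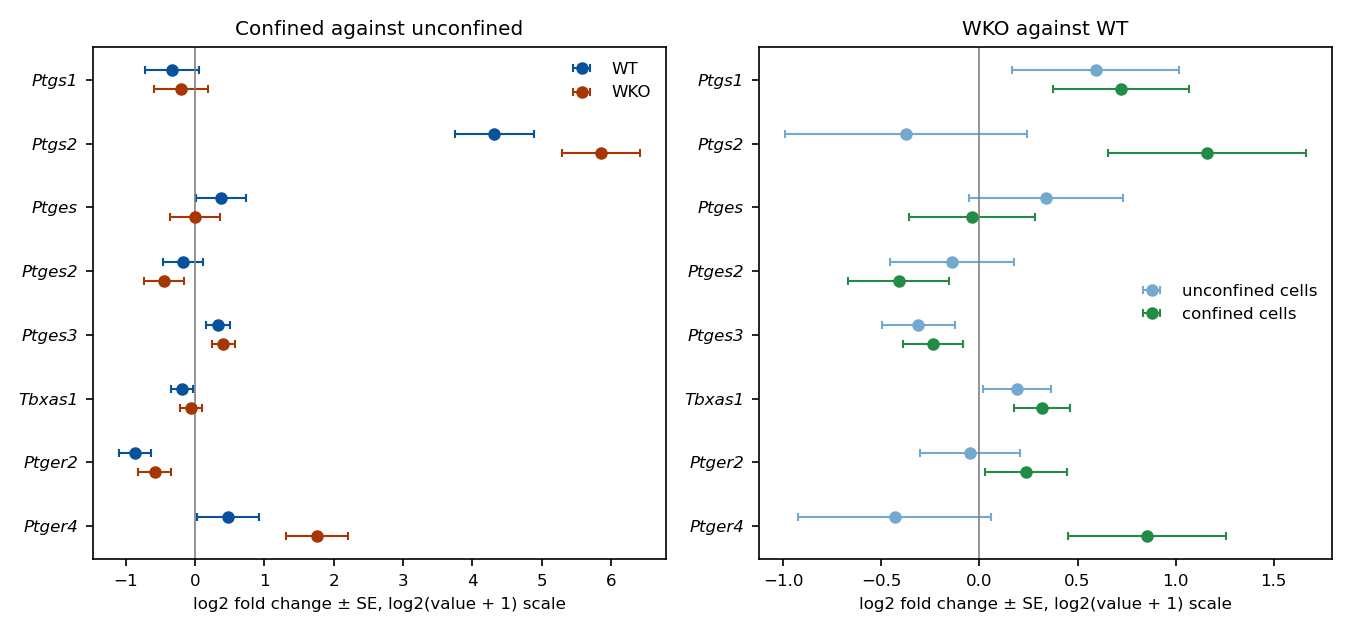
Log2 fold change with its standard error (x axis) of the 8 genes (y axis): confined against unconfined cells in WT and WKO (left) and WKO against WT in unconfined and confined cells (right), from the limma fit to all 10 libraries. On the left Ptgs2 stands at 4.32 in WT and 5.85 in WKO cells, while the other 7 genes lie between -0.87 and 1.76.

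Averaged over the conditions, 0 of 8 genes passed, against 5.57% of all genes. Ptgs1 was the only one of the 8 whose 5 WKO libraries, 368.0 to 531.8, all lay above its 5 WT libraries, 114.1 to 364.2; such separation held for 6.71% of the tested genes. Its averaged difference was 0.66 (log2, SE 0.275, limma adjusted p = 0.203), and 0.39 without WT confined replicate 6. Tbxas1 was 0.25 higher (SE 0.112, limma adjusted p = 0.230) and Ptges3 was -0.27 (SE 0.121, limma adjusted p = 0.233). Markers of several cell types differed the same way as Ptgs1 in this comparison. All 12 neutrophil and progenitor markers were higher on average in WKO cells and 7 passed, as did 2 of the 9 tested stromal markers, all 9 of which were higher. Of the 9 macrophage markers 7 were higher and 4 passed, and of the 4 tested platelet-lineage markers 3 were higher and 1 passed. The part of these cells in the Ptgs1 and Tbxas1 values was not tested.

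No gene of the 12455 (0%) had a confinement effect that differed between the genotypes at an adjusted p of 0.05 with limma, edgeR or DESeq2; 258 did at an unadjusted p under 0.05 with limma, none of them among the 8. The difference between the genotypes was 1.53 (log2, SE 0.797) for Ptgs2 and 1.29 (SE 0.636) for Ptger4, both with a limma adjusted p of 0.999. Leaving out WKO confined replicate 5 brought them to 0.96 and 0.71, and leaving out WT unconfined replicate 3 brought Ptgs2 to 0.99. With array weights the Ptgs2 value was 0.53, and without WKO confined replicate 2 it was 2.14.

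The genes whose profile over the 10 libraries was most like that of Ptgs2, among 10217 genes with a mean of at least 50, were Nr4a1 (Pearson r of log2 values 0.994), Maff (0.989), Gem (0.987), Dusp5 (0.986) and Il1b (0.985). They remained at 0.982 or above without WKO confined replicate 5. Nr4a1 is an immediate early nuclear receptor, Maff a small bZIP factor, Gem a small GTPase, Dusp5 a phosphatase of ERK and Il1b the gene of interleukin-1 beta. All of these profiles share the step between the 4 unconfined and the 6 confined libraries. For Ptger4 the nearest genes were H3f3b (0.974), Zfp131 (0.962) and Emp1 (0.960), which fell to 0.929, 0.889 and 0.888 without that library. For Ptgs1 they were Gpx3 (0.929), Mmp8 (0.921) and Tlr13 (0.921). Mmp8 encodes the neutrophil collagenase. For Ptges no gene exceeded 0.844, the value of A630072M18Rik, followed by L3mbtl3 and Ncstn (0.836 each). Among the 8 genes themselves the highest correlation was between Ptgs1 and Tbxas1 (0.854), and Ptgs2 ran with Ptger4 (0.789) and against Ptger2 (-0.808).

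The pathway lists below were chosen with earlier results of these data known. Counts of calls in them are therefore a description and not evidence about the lists. The genes upstream of the cyclooxygenases did not pass in either direction. Of 21 genes of arachidonate release 12 were tested, and 0 passed in any of the 7 comparisons of the limma fit. With array weights 3 passed for genotype in confined cells, 3 for the averaged genotype effect and 1 for confinement in WKO cells. When a library was left out, the counts for genotype in confined cells and averaged were 0 to 1. Pla2g4a, the cytosolic phospholipase A2 gene, ran from 274 to 435 over all 10 libraries. The 9 others had at most 20 reads in any library.

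Of 14 other genes of prostanoid synthesis, transport and breakdown 11 were tested and 1 passed in confined cells, against 2.59% of all genes. Hpgd encodes 15-hydroxyprostaglandin dehydrogenase, the enzyme that inactivates prostaglandin E2. Its normalized read count was 38.0 and 35.5 in WT unconfined and 145.0 and 100.1 in WKO unconfined libraries. It was 13.9, 29.3 and 10.4 in WT confined and 149.1, 136.9 and 71.9 in WKO confined libraries. All 5 WKO libraries lay above all 5 WT libraries. The difference in confined cells was 2.73 (log2, SE 0.402, limma adjusted p = 0.00735) and passed in all 21 alternatives, with adjusted p-values up to 0.0395. Averaged over the conditions it was 2.21 (SE 0.318, limma adjusted p = 0.00269). In confined cells all 12 neutrophil and progenitor markers were higher in WKO as well, though 0 passed, and all 9 tested stromal markers were higher with 5 past the threshold (median 3.06), as were 8 of 9 macrophage markers with 4 past it. The part of these cells in the Hpgd result was not tested.

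Slco2a1, the prostaglandin transporter gene, had low counts and did not pass: it ran from 0 to 6.43 in WT and from 5.26 to 38.2 in WKO libraries, and its averaged difference was 2.66 (log2, SE 0.739, limma adjusted p = 0.0601). This gene was chosen after its values were seen, as was Hpgds, the hematopoietic prostaglandin D synthase gene. Hpgds had high counts of 3049 to 4521 in every library, with an averaged genotype difference of 0.10 (SE 0.103). The lipocalin-type synthase gene Ptgds had at most 2 reads. Of 7 other prostanoid receptor genes only Ptgir, the prostacyclin receptor gene, and Ptger1 were tested; neither passed in any comparison, and Ptgdr and Ptgdr2 had 0 reads in all libraries.

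**Figure D4:**
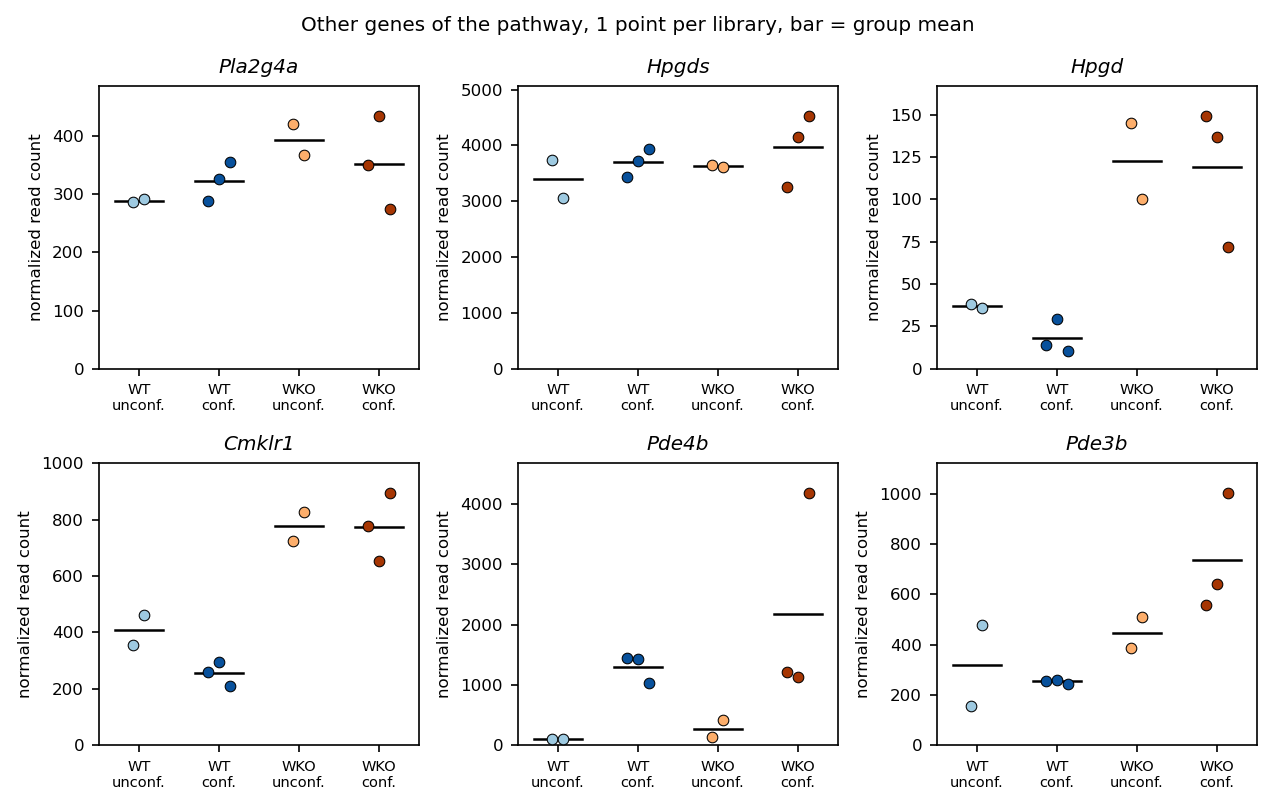
Normalized read count (y axis, from 0) of 6 other genes of the pathway in the 4 groups (x axis), 1 point per library with a bar at the group mean. Hpgd and Cmklr1 lie higher in all WKO than in all WT libraries, Pde4b lies between 1025 and 4186 in the 6 confined libraries and at 414 or less in the 4 unconfined ones, Pla2g4a stays between 274 and 435 and Hpgds between 3049 and 4521.

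The leukotriene and lipoxygenase list, which shares arachidonate as substrate, held 18 genes of which 12 were tested. In confined cells 3 of 12 passed higher in WKO and 0 lower, against 2.59% of all genes in either direction. Cmklr1, a receptor for chemerin and resolvin E1, went from 210 to 293 in WT confined to 653 to 895 in WKO confined libraries (log2 difference 1.60, SE 0.170, limma adjusted p = 0.00141) and passed in all 21 alternatives. The stromal, macrophage and neutrophil markers that were higher in the same comparison are given with Hpgd, and their part in the values of this list was not tested. Fpr2, a formyl peptide and lipoxin receptor gene (2.21, limma adjusted p = 0.0297), and Ggt5, which encodes an enzyme that converts leukotriene C4 (1.42, limma adjusted p = 0.0364), passed in 10 and 11 of the 21. Leaving out either WKO unconfined library, any WT confined library, or WKO confined replicate 1 or 2 ended both calls, with adjusted p-values from 0.0509 to 0.110. With the averaged genotype effect 4 of 12 passed, against 5.57% of all genes, the fourth being Alox5, the 5-lipoxygenase gene (1.42, limma adjusted p = 0.0318), which is outside the naming rule and lost its call without any 1 of 7 libraries (adjusted p = 0.0554 to 0.129): both WT unconfined, both WKO unconfined, WT confined replicates 2 and 6 and WKO confined replicate 2. Fpr2 and Alox5 are also expressed by neutrophils. With confinement averaged over the genotypes, Fpr2 (-1.88, limma adjusted p = 0.0112) and Alox12 (-2.42, limma adjusted p = 0.0482) were lower. In that comparison all 12 neutrophil and progenitor markers were lower too (median -1.28, 1 passed), as were all 4 tested platelet-lineage markers (median -0.99, 1 passed) and all 9 tested stromal markers (median -0.91, 0 passed), and their part in the result was not tested. The Fpr2 call was lost without WT unconfined replicate 1 or WKO unconfined replicate 1 (adjusted p = 0.0689 and 0.0738), and the Alox12 call without any library other than WKO confined replicate 1 (adjusted p = 0.0505 to 0.196).

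Downstream of EP2 and EP4, 28 of 30 genes of cyclic AMP signalling were tested. In each genotype 1 of 28 passed after confinement, against 1.16% of all genes in WT and 1.72% in WKO cells. This was the phosphodiesterase gene Pde4b, whose product degrades cyclic AMP. It stood at 106.4 and 98.8 in WT unconfined and at 1438, 1435 and 1025 in WT confined libraries, and at 132.2 and 414.0 in WKO unconfined and 1217, 1133 and 4186 in WKO confined libraries. The differences were 3.63 (log2, SE 0.528, limma adjusted p = 0.00597) in WT and 2.93 (SE 0.528, limma adjusted p = 0.0174) in WKO cells. Without the mean-variance trend both calls were lost (limma adjusted p = 0.0736 in WT and 0.116 in WKO cells). With only the groups compared the WKO call was lost as well (limma adjusted p = 0.159). The WT call was lost without WT unconfined replicate 1 (adjusted p = 0.0860) or 3 (adjusted p = 0.0799), and the WKO call without WKO unconfined replicate 1 (adjusted p = 0.247). The genotype effect passed for Pde3b in confined cells, 1.49 higher in WKO (limma adjusted p = 0.0411), and for Pde3b (1.09, limma adjusted p = 0.0359) and the adenylate cyclase gene Adcy3 (0.66, limma adjusted p = 0.0297) when averaged. In the averaged confinement effect 4 of 28 were higher, against 6.21% of all genes in either direction, led by Pde4b, Atf1 (0.36, limma adjusted p = 0.0254) and Crem (0.56, limma adjusted p = 0.0391), and 0 were lower. The calls of Pde3b, Adcy3, Atf1 and Crem were each lost in 6 or 7 of the 10 fits that left out a library, with adjusted p-values from 0.0512 to 0.175; each of the 10 libraries other than WKO confined replicate 1 ended at least 1 of them.

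Regulators known to act on Ptgs2 transcription or on its mRNA formed a list of 25 genes, of which 24 were tested. This list too was chosen with earlier results of these data known, so its counts are not evidence about Ptgs2 regulators. After confinement 5 of 24 passed higher in WT cells, where 1.16% of all genes passed, and 6 of 24 in WKO cells, where 1.72% passed, and 0 passed lower in either. In WT cells the leading ones were Rel, an NF-kB subunit (2.33, SE 0.330, limma adjusted p = 0.00558), Cebpb, a C/EBP factor (1.95, SE 0.350, limma adjusted p = 0.0218), and Zfp36, whose product tristetraprolin destabilizes AU-rich mRNAs (2.07, SE 0.378, limma adjusted p = 0.0235). In WKO cells they were Rel (2.34, limma adjusted p = 0.00409) and the AP-1 genes Fos (2.27, limma adjusted p = 0.00480) and Jun (1.76, limma adjusted p = 0.0116). Without WT unconfined replicate 1 or 3 the WT calls of Rel (adjusted p = 0.0807 and 0.0728) and Zfp36 (0.165 and 0.179) were lost, and the Cebpb call was lost without WT unconfined replicate 1 (0.161) or any WT confined library. The Zfp36 call was also lost without WT confined replicate 3 or 6 (0.0800 and 0.0798). In WKO cells the Rel call was lost without WKO unconfined replicate 1 (0.0804), and those of Fos (0.0633) and Jun (0.171) without WKO unconfined replicate 3. The other genes that passed were Fos and Dusp1 in WT and Cebpb, Zfp36 and Dusp1 in WKO cells. Of the 10 fits that each left out a library, 5 ended the call of Fos (adjusted p up to 0.292) and 4 that of Dusp1 (up to 0.229) in WT cells. In WKO cells 7 ended that of Dusp1 (up to 0.404), 5 that of Zfp36 (up to 0.326) and 1, without WKO unconfined replicate 1, that of Cebpb (0.270). The median of the list was 0.21 in WT and 0.28 in WKO cells, beside -0.01 and -0.01 over all genes. Without the mean-variance trend 0 of 24 passed in either genotype. With only the groups compared, the WKO calls of Rel and Fos were lost (limma adjusted p = 0.0840 each). Those of Jun (0.0678), Zfp36 (0.138) and Dusp1 (0.170) were lost too, whereas the WT count was 8. The count was 0 to 6 in WT cells when a library was left out, being 0 without WT unconfined replicate 1 and 1 without WT unconfined replicate 3, WT confined replicate 3 or WT confined replicate 6. It was 2 to 9 in WKO cells, being 2 without either WKO unconfined library. The averaged confinement effect gave 7 higher and 1 lower, the translational repressor gene Tia1 (-0.69, limma adjusted p = 0.0110; 0.0600 without WT unconfined replicate 1 and 0.0664 without WKO unconfined replicate 1). The averaged genotype effect gave 1, Khsrp, whose product promotes decay of AU-rich mRNAs, at -0.34 in WKO against WT (limma adjusted p = 0.0419), which was lost without any 1 of 7 libraries (up to 0.228): both WT unconfined, WKO unconfined replicate 3, all 3 WT confined and WKO confined replicate 2.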

How the data were processed

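RNA sequencing libraries were compared as 4 groups of genotype and treatment taken from the labels. The table that the authors deposited holds a normalized signal for each gene in each library; per the submitters' processing notes FastQC, Trim Galore, STAR and the builds GRCm38 and mm10 were named, while counter, gene models and strand setting are not given in the sources used here. In every library 100% of values were whole multiples of 1 step (tolerance 0.001), so reads could be recovered; the deposited values equal reads divided by DESeq2 size factors.

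Values were tested as log2(value + 1) with limma 3.58.1 in R 4.3.3, with a mean-variance trend and 1 mean per group (6 residual degrees of freedom), for the 12455 genes with a mean of at least 10, of 57010 (33419 were 0 throughout). P-values were adjusted by Benjamini-Hochberg over all tested genes, with a threshold of 0.05. The program was tested on simulated data. On recovered reads edgeR 4.0.16 called 116 genes for confinement in WT and 186 in WKO cells, against 144 and 214 with limma. Alternatives were 2 other pseudocounts, no filter, TMM and upper-quartile scaling, edgeR, DESeq2 1.42.0, a replicate block, array weights, no trend, only the groups compared, and leaving out each library. No pair of replicates agreed within sampling noise (chi-square per degree of freedom 7.56 to 78.3).

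The 8 genes, the pathway lists and the markers were chosen with earlier results of these data known. Genes named from a list are up to 3 with the smallest p among those that passed. Levels per kilobase used GENCODE M21 exon lengths, with the exons of all transcripts of a gene merged. Shared sequence was searched with blastn 2.17.0 (95% identity, at least 100 bases).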

Additional observations from a re-analysis of the deposited data

How the results depend on the processing

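The count of the 8 genes past the threshold for the genotype effects and for the interaction was 0 under every alternative. For confinement in WT cells it was 1, with 2 under DESeq2, 0 without the mean-variance trend and 0 to 1 when a library was left out. In WKO cells it was 1, with 2 under DESeq2, 2 with the replicate block, 3 with array weights and 1 to 3 when a library was left out. Ptger4 was gained under DESeq2, the replicate block and array weights, and Ptges3 with array weights. For confinement averaged over the genotypes it was 2, with 4 under DESeq2, 4 with array weights and 1 to 4 when a library was left out. Ptgs2 was higher after confinement in every alternative; its WT call was lost without the trend (4.32) and without WT unconfined replicate 1 (3.78).

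Small differences between the genotypes changed sign. With the replicate block the averaged Ptger4 difference was -0.00815, the Ptgs1 interaction -0.56 and the Ptges2 interaction 0.064; with array weights the averaged differences were -0.11 for Ptgs2 and -0.039 for Ptger4; the Ptgs1 interaction was -0.0620 with edgeR and -0.0497 with DESeq2. With a library left out, differences in unconfined cells ran from -0.10 to 0.78 for Ptges, -0.93 to 0.18 for Ptgs2, -0.30 to 0.0145 for Ptges2 and -0.22 to 0.13 for Ptger2. In confined cells Ptges ran from -0.23 to 0.14. Averaged differences ran from -0.0713 to 0.37 for Ptges and -0.0764 to 0.39 for Ptger4. The interaction ran from -0.82 to 0.0651 for Ptges, -0.41 to 0.42 for Ptgs1, -0.10 to 0.26 for Ptges3, -0.0411 to 0.22 for Tbxas1 and -0.55 to 0.0592 for Ptges2. The cause was not tested.

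Counts over all genes ranged from 20 to 455 for confinement in WT (144 as reported), 33 to 1735 in WKO (214), 4 to 245 for genotype in unconfined cells (18), 53 to 1948 in confined cells (322), 169 to 1804 averaged (694) and 287 to 2220 for averaged confinement (773). The replicate block took the replicate numbers as pairs. Same-numbered libraries of different groups deviated from their group means with correlations of -0.11 to 0.076. In groups of 2 libraries the deviations mirror each other, so these values cannot show whether libraries were paired. The block left 2 residual degrees of freedom. It gave 216 genes for confinement in WT, 222 in WKO and 245 for genotype in unconfined cells. At these depths genes under 3 reads per library, such as Ptgdr, cannot be described.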
